A study of Mus musculus with 10 samples.

Results

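The genes described here follow the oligodendrocyte, the glial cell that wraps axons of the central nervous system in myelin, from its precursor to the mature cell. The 43 genes were listed by name, in the order of the stages. No threshold on their values entered the list, though it was drawn up with earlier results of these data known. All 43 were among the 47632 genes of the deposited table. Values are FPKM, in which the fragments counted for a gene are divided by its transcript length and by a total for the library. Whether that total was the library's own or was scaled between libraries was not given. Testing was limited to genes that averaged 1 FPKM or more over all libraries, which kept 15905 genes and 41 of the 43. The precursor gene Cspg4 and the lipid enzyme gene Gal3st1 stayed below that level.

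RNA was sequenced from the striatum, a deep forebrain region crossed by bundles of myelinated axons, of R6/2 hemizygous mice and of isogenic wild-type controls. All mice were 11 weeks old at harvest, and each group had 5 libraries, called Control 1 to 5 and R6/2 1 to 5 after their labels. R6/2 mice model Huntington's disease with a transgene that encodes only the N-terminal part of human huntingtin with an expanded CAG repeat, so they do not carry the full-length mutant protein. Nothing in the labels ties each library to an animal of its own, so the spread behind the p-values is that between these samples and may be technical in part.

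Precursors that carry the receptor Pdgfra and the proteoglycan Cspg4 divide throughout life, and some of them stop dividing, pass through a short-lived stage marked by Gpr17, Bcas1 and Enpp6, and then either mature or die. Olig1, Olig2, Sox10 and Nkx2-2 are transcription factors that keep the lineage's identity, and Myrf, which Sox10 helps to switch on, drives the myelin genes. The mature cell makes very large amounts of a few membrane proteins (Mbp, Mobp, Mag, Mog) and of galactolipids, whose synthesis needs Ugt8a. Fa2h adds the hydroxyl group that many of these lipids carry, and the mature cell couples to astrocytes through connexins.

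Of the 41 tested genes of the lineage, 13 were lower in R6/2 and 0 were higher (limma, Benjamini-Hochberg adjusted p under 0.05 over all genes tested). Over all genes tested, 9.11% were lower and 5.00% were higher by the same rule. The fitted change was below 0 for 37 lineage genes and above 0 for 4, with a median of -0.38 on the log2(FPKM + 1) scale, R6/2 minus Control, against 0.001 over all genes tested. For 12 of the 41, every R6/2 library lay below every Control library, which held for 8.58% of all genes tested. By stage, the 13 genes that passed were 12 of 26 myelinating genes (median -0.49), 1 of 3 genes of the differentiating stage (median -0.31), 0 of 6 precursor genes (median -0.32) and 0 of 6 lineage transcription factors (median -0.14). Whether one stage changed more than another was not tested, and the ratios given further on set single genes against each other. In bulk tissue, fewer cells of a type and less RNA per cell cannot be told apart, and this holds for each value that follows.

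**Figure D1:**
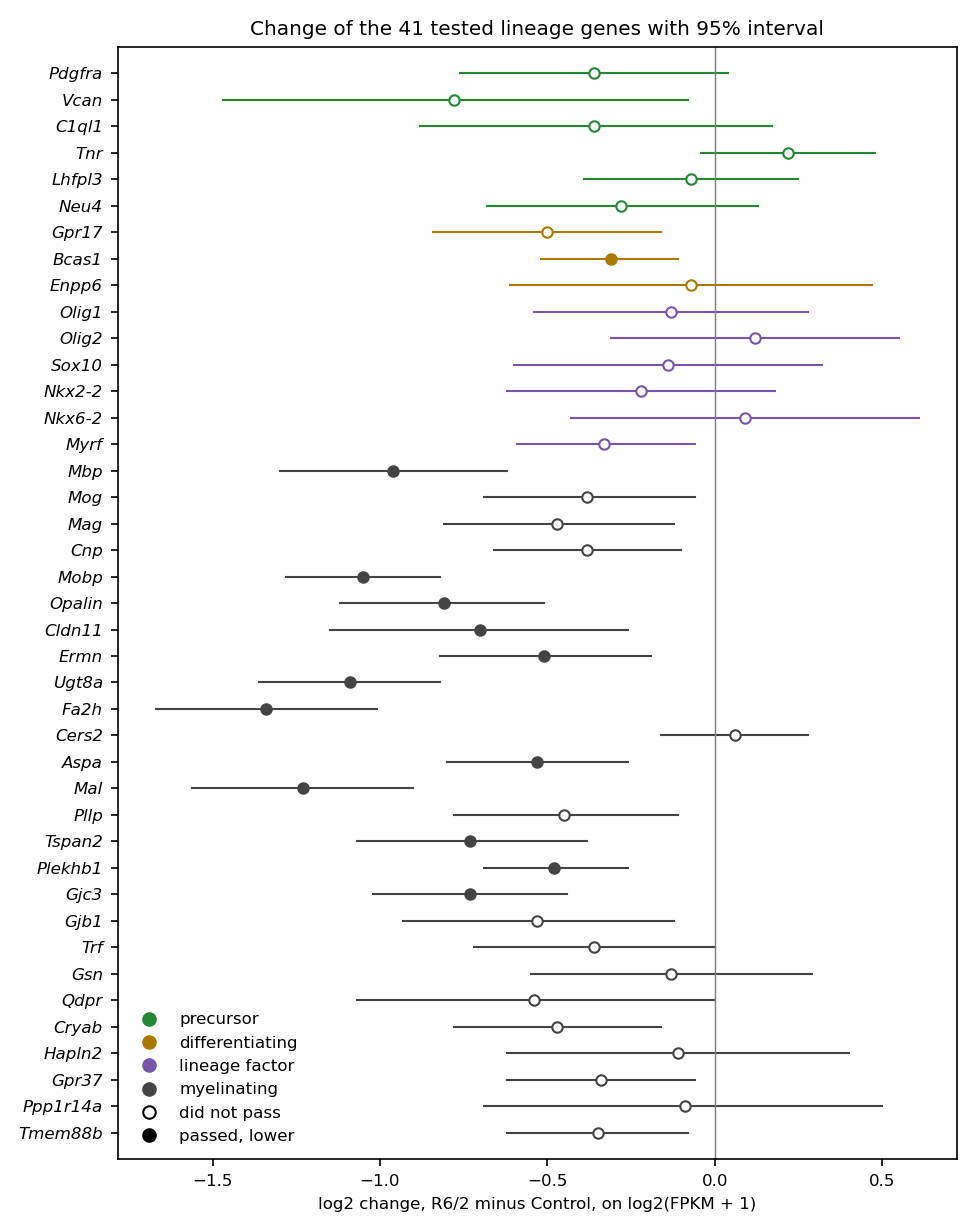
Log2 change of each of the 41 tested lineage genes on the log2(FPKM + 1) scale, R6/2 minus Control, with bars for the 95% interval of the limma fit, colours for the stage and filled points for genes that passed the threshold. The 13 filled points all lie left of 0, from Fa2h at -1.34 to Bcas1 at -0.31, and 12 of them are myelinating genes.

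Many low FPKM values fell on steps of whole fragments, and these steps gave what 1 fragment was worth in each library. This stands for relative depth only if each library was divided by its own total, which was not given. Over genes below 1 FPKM in both libraries of a pair with Control 1, 37.1% to 41.6% of the ratios lay on ratios of whole numbers up to 5 (tolerance 0.001 on the log2 scale), which cover 0.633% of the range. Read in that way, depth relative to Control 1 ran from 0.71 to 1.02 in the Control libraries. It ran from 0.686 (R6/2 2) to 1.38 (R6/2 1) in the R6/2 libraries, and R6/2 5 stood at 0.886. The absolute depth is unknown. Protein-coding genes summed to 211209 to 219426 FPKM in Control and to 193203 to 202906 in R6/2, so the share of calls that were lower depended on scaling. It was 64.6% as deposited, 53.5% after quantile normalization and 42.7% (1133 lower and 1520 higher) after rescaling each library to its protein-coding total.

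Among markers of other cells, all 13 tested genes of spiny projection neurons were lower (median -2.20), and their summed level fell from 2130.4 to 2708 FPKM in Control to 353 to 558 in R6/2. Of 6 tested genes of cortical neurons, 2 were higher and 0 lower (median 0.69), and the sum of the 7 listed was 26.5 to 55.9 FPKM in Control and 56.4 to 102 in R6/2. Astrocyte genes were lower in 4 of 11 (median -0.38), microglial genes in 1 of 9 (median -0.27), blood genes in 2 of 5 (median -0.96) and endothelial and mural genes in 0 of 8 (median -0.10). By the same rule 9.11% of all genes tested were lower and 5.00% higher, and the microglial count is near the share that were lower. Choroid plexus genes varied in both groups, with sums of 14.3 to 547 FPKM in Control and 27.3 to 463 in R6/2, and 0 of 5 passed in either direction. No gene of Schwann cells, the myelinating cells of peripheral nerve, reached the level tested. The 4 listed genes summed to at most 3.06 FPKM in Control and 2.32 in R6/2, and Pmp2 was listed at 0 in every library. The defining genes of oligodendrocytes were present in every library.

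The R6/2 libraries were not alike. R6/2 5 was the highest R6/2 library for 28 of the 41 tested lineage genes, among them 18 of 26 myelinating genes and 5 of 6 lineage factors. The summed FPKM of all 43 genes was 1106, 1109, 1118 and 1258 in R6/2 1 to 4 and 1545 in R6/2 5, below the 1818 to 2132 of the Control libraries. Among the controls, Control 4 was the lowest for 20 of the 41 genes and Control 5 the highest for 16. Without R6/2 5, 19 lineage genes were lower in place of 13, and Bcas1 was no longer among them. Over all genes tested, 8.17% were lower without R6/2 5, against 9.11% with all libraries.

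**Figure D2:**
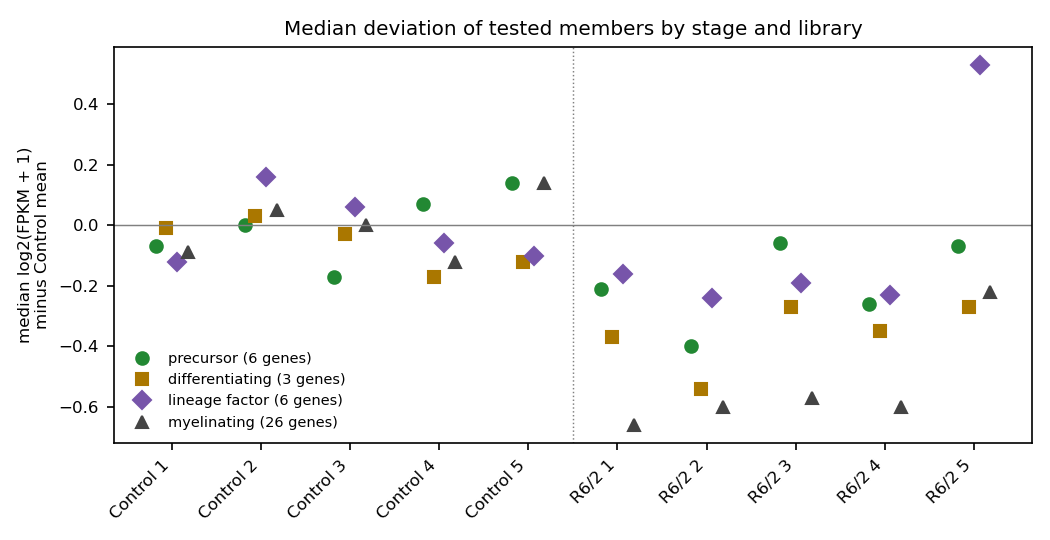
Median over the tested genes of each stage of log2(FPKM + 1) minus the Control mean, by library. The myelinating genes lie between -0.66 and -0.57 in R6/2 1 to 4 and at -0.22 in R6/2 5, while the lineage factors lie at 0.53 in R6/2 5 and between -0.24 and -0.16 in the other R6/2 libraries.

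The promoters of 3 genes that were lower are shown because their protein products act at different steps of making the sheath and the motif matches in them differ. Mobp is a structural myelin protein, Opalin a glycoprotein of the mature cell and Ugt8a the enzyme that makes galactosylceramide. The sequences are those of RefSeq on GRCm38.p6, from 250 bases before the start of the gene to 50 after it, read 5' to 3' on the gene's own strand. Capitals mark every match, on either strand, to 6 short motifs. The first pair, ACAAAG together with its variant ACAATG, are cores bound by SOX factors such as Sox10. The second pair, CAGATG with the palindromic form CAGCTG, are E-boxes, the type of site that basic helix-loop-helix factors such as Olig2 bind. The third pair, CTGGCAC with the variant form CTGGTAC, are cores bound by Myrf. No 2 of the marked matches in these 3 promoters overlap. The windows are chr9:120149492-120149791 on the + strand for Mobp, chr19:41077064-41077363 on the - strand for Opalin and chr3:125938603-125938902 on the - strand for Ugt8a.
Mobp: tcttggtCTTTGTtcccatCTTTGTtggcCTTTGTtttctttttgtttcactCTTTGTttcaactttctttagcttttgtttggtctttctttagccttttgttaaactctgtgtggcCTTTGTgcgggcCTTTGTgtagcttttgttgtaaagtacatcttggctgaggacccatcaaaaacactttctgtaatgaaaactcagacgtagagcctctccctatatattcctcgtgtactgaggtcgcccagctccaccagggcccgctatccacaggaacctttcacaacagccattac
Opalin: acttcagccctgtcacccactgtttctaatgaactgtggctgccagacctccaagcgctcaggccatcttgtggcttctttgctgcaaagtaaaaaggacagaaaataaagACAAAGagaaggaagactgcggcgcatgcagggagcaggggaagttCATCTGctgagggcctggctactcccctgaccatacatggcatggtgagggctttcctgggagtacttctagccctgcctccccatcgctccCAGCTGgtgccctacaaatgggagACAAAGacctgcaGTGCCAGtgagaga
Ugt8a: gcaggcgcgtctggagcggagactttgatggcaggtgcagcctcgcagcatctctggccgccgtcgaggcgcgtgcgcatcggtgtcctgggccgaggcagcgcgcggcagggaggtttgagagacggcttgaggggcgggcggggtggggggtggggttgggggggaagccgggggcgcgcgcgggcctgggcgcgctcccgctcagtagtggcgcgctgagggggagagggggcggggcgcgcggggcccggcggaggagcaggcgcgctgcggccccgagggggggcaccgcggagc

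The Mobp promoter held 6 matches to ACAAAG, all on the other strand, where they read CTTTGT. Of the 32851 promoters in the table, 1 (0.00304%), that of Mobp itself, held as many. The Opalin promoter held 5 matches, of which 2 were to the SOX core ACAAAG, 1 each to both E-box forms and 1 to the Myrf core CTGGCAC. The Ugt8a promoter held none of the 6 motifs and was 78.3% G and C, against a median of 59.7% over the 33 lineage genes with a promoter in the table. Across those 33 genes, ACAAAG occurred in 6 (18.7% of all promoters hold it), ACAATG in 6 (12.6%), CAGATG in 11 (17.2%), CAGCTG in 5 (16.3%), CTGGCAC in 4 (5.01%) and CTGGTAC in 1 (2.24%). Of the 10 genes with a promoter that were lower in R6/2, 5 held CAGATG and 2 held ACAAAG. These are matches of letters in a short window and say nothing of whether a factor binds there.

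Of the 6 tested precursor genes, 0 passed in either direction. Pdgfra, the receptor for the growth factor that keeps precursors dividing, measured 4.43, 4.78, 4.99, 5.79 and 2.88 FPKM in Control 1 to 5 and 3.27, 2.98, 4.80, 2.35 and 3.25 in R6/2 1 to 5. The groups overlapped: Control 5 lay below 4 of the R6/2 libraries and R6/2 3 lay among the controls. The change of -0.36 ± 0.179 (SE, limma adjusted p = 0.228) had a 95% interval of -0.76 to 0.04. Cspg4, the NG2 proteoglycan, was 0.999, 0.869, 0.984, 1.62 and 0.672 FPKM in Control 1 to 5 and 0.983, 0.912, 0.687, 0.493 and 0.892 in R6/2 1 to 5, and was not tested. Both genes had their highest value in Control 4, and their Control means were 4.57 ± 1.07 and 1.03 ± 0.357 FPKM (SD, n = 5).

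The remaining precursor genes went in both directions. Vcan, the matrix proteoglycan versican, had the lowest fitted change of the stage, from 16.1 ± 4.60 to 9.41 ± 4.30 FPKM (SD, n = 5), but its R6/2 libraries ran from 4.87 to 14.0 against 11.0 to 21.3 in Control, and it did not pass (-0.78, limma adjusted p = 0.136). Tnr, the matrix glycoprotein tenascin-R, which some neurons also make, had a value above 0 (0.22, limma adjusted p = 0.257), with 39.3 to 45.9 FPKM in R6/2. Its Control libraries 1 to 4 measured 32.0 to 35.3 and Control 5 measured 49.2, and without Control 5 Tnr was higher in R6/2 (0.33, limma adjusted p = 0.0128). The sialidase gene Neu4 (-0.28), the secreted C1q-like gene C1ql1 (-0.36) and Lhfpl3 (-0.07) did not pass, and in each the groups overlapped.

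Of the 3 genes of the differentiating stage, Bcas1 passed. Bcas1, which marks oligodendrocytes at the start of myelination, measured 100, 83.4, 79.6, 72.2 and 74.7 FPKM in Control 1 to 5 and 63.0, 63.3, 70.1, 63.5 and 67.3 in R6/2 1 to 5. Every R6/2 library lay below every Control library, by a narrow gap between 70.1 and 72.2. The change was small, -0.31 ± 0.0915 (SE, limma adjusted p = 0.0491), and as libraries were left out in turn it kept the threshold only without Control 4 and without Control 5.

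Gpr17, a receptor of committed precursors that holds back their maturation, measured 2.76, 2.09, 3.15, 4.07 and 2.18 FPKM in Control 1 to 5 and 1.79, 1.61, 1.73, 1.34 and 1.95 in R6/2 1 to 5. The groups did not overlap, and R6/2 libraries held 59.0% of the Control mean. The change of -0.50 ± 0.153 (SE) did not pass (limma adjusted p = 0.0571), and it passed without Control 2 (adjusted p = 0.0454) and without Control 5 (adjusted p = 0.0432). Enpp6, a choline phosphodiesterase of newly formed oligodendrocytes, measured 6.55, 8.47, 6.94, 5.33 and 12.4 FPKM in Control 1 to 5 and 6.35, 4.93, 6.18, 8.66 and 11.4 in R6/2 1 to 5. Its groups overlapped over almost their whole range, with the highest value of each group in library 5, and its change of -0.07 had a 95% interval of -0.61 to 0.47 (limma adjusted p = 0.893).

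None of the 6 transcription factors passed, and 1 library stood apart in several of them. Olig2, which specifies the lineage, measured 5.39, 5.46, 5.00, 4.00 and 4.79 FPKM in Control 1 to 5 and 4.90, 4.73, 4.04, 4.96 and 9.76 in R6/2 1 to 5. R6/2 5 was the highest of all 10 libraries, and the other 4 R6/2 libraries lay within the Control range. The change was 0.12 (limma adjusted p = 0.731) and -0.07 without R6/2 5. Sox10, which acts with Olig2 and switches on Myrf, measured 14.6, 17.3, 17.6, 17.7 and 16.5 FPKM in Control 1 to 5 and 15.2, 11.8, 11.2, 13.9 and 27.1 in R6/2 1 to 5. R6/2 5 was again above every other library, while R6/2 2, 3 and 4 lay below every Control library. The change of Sox10 was -0.14 (limma adjusted p = 0.702), and without R6/2 5 it was -0.35 (adjusted p = 0.0665).

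Olig1, the partner of Olig2 in maturation, measured 6.57, 9.44, 7.18, 9.28 and 11.2 FPKM in Control 1 to 5 and 6.36, 8.10, 7.83, 5.99 and 11.6 in R6/2 1 to 5. The groups overlapped, with library 5 highest in both, and the change was -0.13 (limma adjusted p = 0.704). Myrf, the membrane-bound factor that drives myelin genes, measured 8.03, 9.65, 10.2, 7.14 and 7.31 FPKM in Control 1 to 5 and 7.22, 6.06, 5.39, 7.10 and 6.78 in R6/2 1 to 5. R6/2 5 was not the highest for Myrf, and 4 of the 5 R6/2 libraries lay below every Control library. Its change of -0.33 ± 0.117 (SE) had an interval of -0.59 to -0.06 and did not pass after adjustment (limma adjusted p = 0.0985). The homeodomain genes Nkx2-2 (-0.22, from 1.39 to 1.04 FPKM) and Nkx6-2 (0.09, from 1.20 to 1.34 FPKM) were near the lowest level tested, and R6/2 5 was the highest R6/2 library for both.

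Among the myelin membrane proteins, 5 of 8 tested genes were lower (median -0.61) and all 8 fitted changes were below 0. Mbp, the myelin basic protein that compacts the inner faces of the membrane, was the most abundant gene of the lineage per length. It measured 741, 804, 841, 739.9 and 889.6 FPKM in Control 1 to 5 and 370.0, 334, 351, 459.5 and 587 in R6/2 1 to 5. The groups did not overlap, and the R6/2 mean of 420.4 ± 105 FPKM was 52.3% of the Control mean of 803 ± 64.8 (SD, n = 5), a change of -0.96 ± 0.152 (SE, limma adjusted p = 0.00251).

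Mobp, the next most abundant and a protein of the cytoplasmic face of compact myelin, measured 244, 249, 229.9, 209 and 211 FPKM in Control 1 to 5 and 98.2, 105, 116, 97.2 and 136 in R6/2 1 to 5. Each R6/2 library was well below the lowest control, and R6/2 held 48.3% of the Control mean (-1.05 ± 0.105, SE, limma adjusted p = 0.000186). Opalin, a transmembrane glycoprotein of mature oligodendrocytes, measured 5.72, 6.90, 5.15, 5.11 and 6.35 FPKM in Control 1 to 5 and 2.96, 2.4, 2.08, 3.39 and 3.80 in R6/2 1 to 5. The groups did not overlap, and the R6/2 mean was 50% of Control (-0.81 ± 0.138, SE, limma adjusted p = 0.00382).

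The other myelin proteins fell less or overlapped. Cldn11, the claudin of the tight junctions between myelin layers, measured 13.1, 18.3, 14.1, 15.9 and 15.2 FPKM in Control 1 to 5 and 6.15, 8.39, 8.93, 7.88 and 15.5 in R6/2 1 to 5. R6/2 1 to 4 lay below every control and R6/2 5 lay among them. Cldn11 passed (-0.70, limma adjusted p = 0.0425), and the threshold was lost without any 1 of the libraries other than R6/2 5, without which it was -0.89 (adjusted p = 0.00262). Ermn, the cytoskeletal protein ermin, measured 27.8, 31.7, 34.4, 25.3 and 39.7 FPKM in Control 1 to 5 and 19.4, 20.7, 24.2, 18.7 and 27.2 in R6/2 1 to 5. Only R6/2 5 reached the range of the controls, above Control 4, and the change was -0.51 (limma adjusted p = 0.0412). As libraries were left out in turn, Ermn kept the threshold only without Control 4 and without R6/2 5.

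Mog, Mag and Cnp did not pass, and in all 3 the highest R6/2 library was R6/2 5. Mog, a glycoprotein on the outermost surface of the sheath, measured 13.3, 15.6, 13.7, 12.9 and 15.4 FPKM in Control 1 to 5 and 9.21, 8.52, 9.99, 11.3 and 15.4 in R6/2 1 to 5. Mag, the adhesion protein of the layer that faces the axon, measured 16.9, 22.6, 23.1, 15.5 and 23.7 FPKM in Control 1 to 5 and 14.4, 12.7, 13.4, 12.4 and 19.2 in R6/2 1 to 5. Cnp, an enzyme that keeps cytoplasmic channels in the sheath open, measured 59.4, 65.6, 72.7, 55.8 and 67.1 FPKM in Control 1 to 5 and 44.7, 39.3, 48.1, 53.2 and 62.4 in R6/2 1 to 5. In each of the 3, R6/2 1 to 4 lay below every control and R6/2 5 lay among the controls. The changes were -0.38 for Mog, -0.47 for Mag and -0.38 for Cnp, with limma adjusted p of 0.117, 0.0769 and 0.0788, and without R6/2 5 all 3 passed, with adjusted p of 0.0134, 0.0312 and 0.0284.

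**Figure D3:**
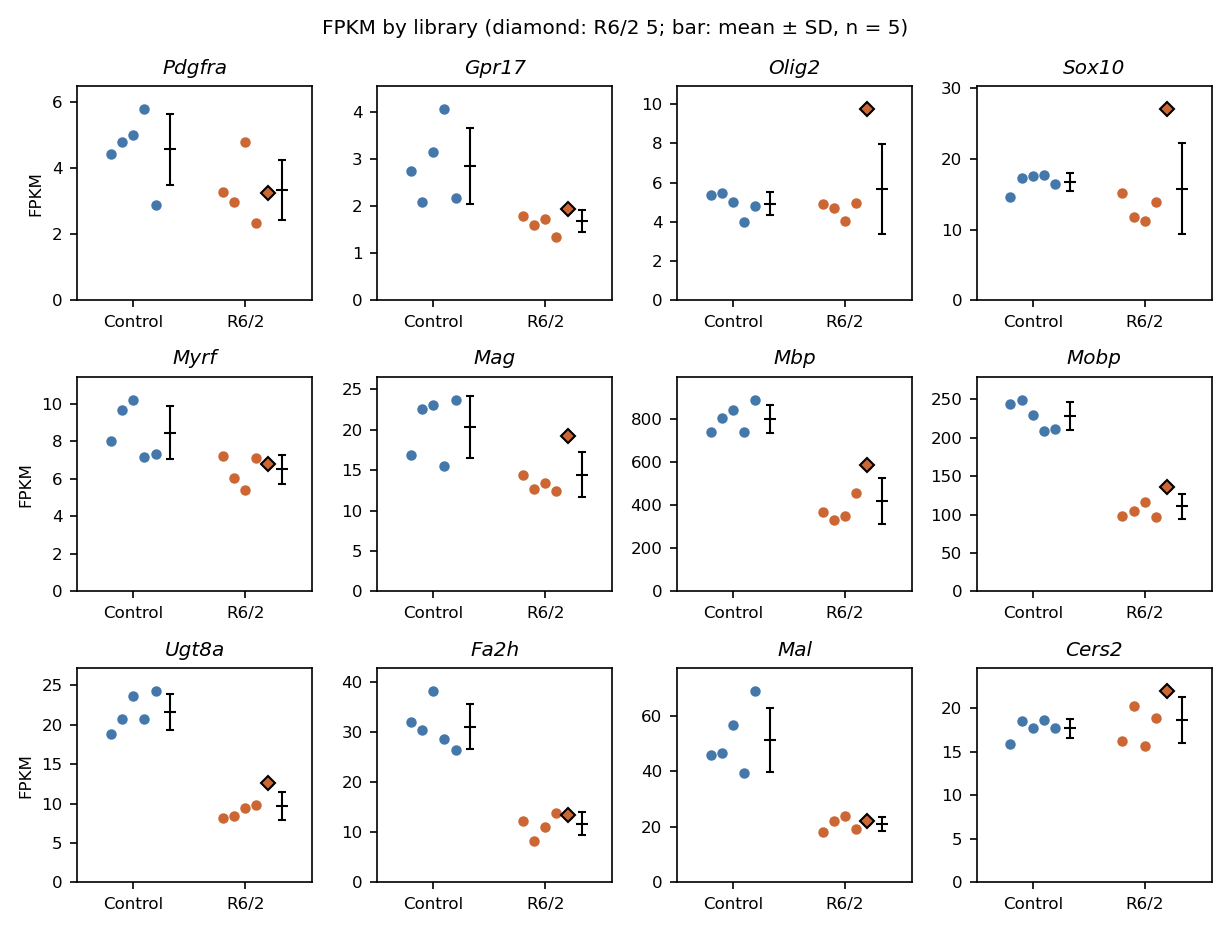
FPKM of 12 lineage genes in each library, with the mean and SD of each group (n = 5) and a diamond for R6/2 5. The groups are apart in Mbp, Mobp, Ugt8a, Fa2h and Mal, R6/2 5 lies above every other library in Olig2 and Sox10, and Cers2 overlaps between groups.

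Of the 4 tested genes of myelin lipid metabolism, 3 were lower (median -0.81). Fa2h, which adds the hydroxyl group carried by many myelin galactolipids, had the largest fall of all lineage genes tested. It measured 32.0, 30.4, 38.3, 28.6 and 26.5 FPKM in Control 1 to 5 and 12.3, 8.19, 11.1, 13.9 and 13.4 in R6/2 1 to 5. No R6/2 library came near the controls, and R6/2 held 37.8% of the Control mean (-1.34 ± 0.147, SE, limma adjusted p = 0.000308). Ugt8a, which joins galactose to ceramide, measured 18.8, 20.7, 23.7, 20.7 and 24.3 FPKM in Control 1 to 5 and 8.17, 8.39, 9.44, 9.85 and 12.6 in R6/2 1 to 5. The groups were again apart, with 44.7% of the Control mean left in R6/2 (-1.09 ± 0.12, SE, limma adjusted p = 0.000314).

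Aspa, the aspartoacylase that frees acetate for lipid synthesis from N-acetylaspartate, measured 24.1, 23.8, 21.5, 21.2 and 24.3 FPKM in Control 1 to 5 and 12.2, 14.9, 18.6, 14.1 and 19.2 in R6/2 1 to 5. The highest R6/2 library lay below the lowest control, and the change was -0.53 ± 0.122 (SE, limma adjusted p = 0.0176). Cers2, the ceramide synthase for very long acyl chains and an enzyme that many other cells also make, did not pass. It measured 17.7 ± 1.11 FPKM in Control and 18.6 ± 2.64 in R6/2 (SD, n = 5), a change of 0.06 with a 95% interval of -0.16 to 0.28 (limma adjusted p = 0.748). Gal3st1, which sulfates galactosylceramide, was below the level tested, with 0.619 ± 0.0787 FPKM in Control and 0.578 ± 0.262 in R6/2 (SD, n = 5).

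Of the 4 membrane and raft proteins that carry or organise myelin components, 3 were lower (median -0.60). Mal, a raft protein that sorts cargo to the myelin membrane, measured 45.8, 46.5, 56.6, 39.6 and 69.0 FPKM in Control 1 to 5 and 18, 22.3, 23.8, 19.2 and 22.0 in R6/2 1 to 5. The R6/2 libraries kept within a narrow range far below the controls (40.9% of the Control mean, -1.23 ± 0.147, SE, limma adjusted p = 0.000496). Tspan2, a tetraspanin of the sheath, measured 38.5, 48.5, 41.1, 42.3 and 67.5 FPKM in Control 1 to 5 and 25.2, 26.0, 31.1, 24.9 and 32.4 in R6/2 1 to 5. Control 5 was far above the other controls, and the groups did not overlap with or without it (-0.73, limma adjusted p = 0.0121).

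Plekhb1, a membrane-associated protein with a pleckstrin homology domain, measured 108, 88.3, 112, 81.6 and 93.0 FPKM in Control 1 to 5 and 65.3, 64.3, 71.3, 68.4 and 74.7 in R6/2 1 to 5. The groups did not overlap (-0.48, limma adjusted p = 0.0105). Pllp, the tetraspan protein plasmolipin, fell short of the threshold with 71.5% of the Control mean in R6/2 (-0.45, limma adjusted p = 0.0799). Its R6/2 libraries 1 to 4 measured 3.64 to 5.73 FPKM against 6.87 to 7.77 in the controls, and R6/2 5 measured 7.6, and without R6/2 5 it passed (-0.57, adjusted p = 0.0127).

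Of the 2 connexins, 1 passed. Gjc3, a connexin of the innermost myelin layers, measured 35.3, 30.9, 32.6, 29.6 and 48.8 FPKM in Control 1 to 5 and 20.4, 19.0, 23.2, 21.1 and 19.6 in R6/2 1 to 5. All R6/2 libraries lay close together and below the controls, with 58.3% of the Control mean (-0.73 ± 0.130, SE, limma adjusted p = 0.00498). R6/2 5 was not high in this gene. Gjb1, a connexin that forms channels between myelin layers, had a mean of 2.34 ± 0.698 FPKM in Control and 1.32 ± 0.436 in R6/2 (SD, n = 5), with Control 1 alone at 3.58, and did not pass (-0.53, limma adjusted p = 0.0870).

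None of the other 8 genes of mature oligodendrocytes passed (median -0.35), and all 8 fitted changes were below 0. Cryab, the small heat shock protein alpha B-crystallin, came closest, with means of 36.7 ± 3.6 FPKM in Control and 26.6 ± 5.69 in R6/2 (SD, n = 5). Its change was -0.47 (limma adjusted p = 0.0521), and only R6/2 5, at 33.5, reached above the lowest control at 33.4. Tmem88b (-0.35, adjusted p = 0.0850), the receptor gene Gpr37 (-0.34, adjusted p = 0.103), the iron carrier Trf (-0.36, adjusted p = 0.181) and Qdpr (-0.54, adjusted p = 0.184), which recycles a cofactor of amine synthesis, followed in the same limma fit. Qdpr measured 19.6 to 32.9 FPKM in R6/2 1 to 4 and 55.3 in R6/2 5, above the highest control at 52.5. The actin-severing protein gene Gsn (-0.13), the nodal link protein gene Hapln2 (-0.11) and the phosphatase inhibitor gene Ppp1r14a (-0.09) were below 4 FPKM in the mean of each group, with groups that overlapped.

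The myelin genes were then set against an early gene and a lineage factor in the same library, as the log2 ratio of FPKM + 1 (8 ratios, exact permutation test, two-sided, Benjamini-Hochberg over the 8). Such a ratio lessens any scale shared by a library, but the added 1 keeps that scale from cancelling in full. Over Olig2, all 4 myelin genes were lower in R6/2. The Mbp to Olig2 ratio was 6.86, 6.96, 7.13, 7.21 and 7.26 in Control 1 to 5 and 5.98, 5.87, 6.13, 6.27 and 5.77 in R6/2 1 to 5, with no overlap. Its difference of -1.08 had the smallest p that 252 splits allow (exact permutation p = 0.00794, adjusted 0.0317). The difference was -0.50 for Mog over Olig2, also with no overlap (exact permutation p = 0.00794, adjusted 0.0317), and -0.59 for Mag and -0.50 for Cnp, each with groups that overlapped (exact permutation p = 0.0159, adjusted 0.0317 for both). R6/2 5 had the lowest ratio over Olig2 for all 4 genes, the reverse of its place in the myelin genes themselves, as its Olig2 level was high. Without R6/2 5 the 4 differences were -1.02, -0.43, -0.50 and -0.40, with an adjusted exact permutation p of 0.0476 for each. Without Control 2, 3 or 5 none of the 4 passed (adjusted exact permutation p of 0.0635 to 0.0794), and Cnp did not pass without Control 4. As libraries were left out, the lowest adjusted exact permutation p was 0.0212 for Mbp, Mog and Cnp and 0.0317 for Mag.

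Over Pdgfra, no ratio passed. The Mbp to Pdgfra ratio was 7.19 ± 0.39 in Control and 6.60 ± 0.51 in R6/2 (SD, n = 5; difference -0.60, exact permutation p = 0.0635, adjusted 0.102). The differences were -0.01 for Mog, -0.10 for Mag and -0.01 for Cnp (exact permutation p = 0.96, 0.754 and 0.96, adjusted p = 0.96 for all 3). Control 5, the library with the least Pdgfra of its group, had the highest ratio of its group in all 4. For Mbp this depended on the pseudocount: with 5 FPKM in place of 1 the difference was -0.75 and passed (adjusted exact permutation p = 0.0254), and with 0.1 it was -0.51 (adjusted 0.279). Pdgfra measured only 2.35 to 5.79 FPKM over the 10 libraries.

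**Figure D4:**
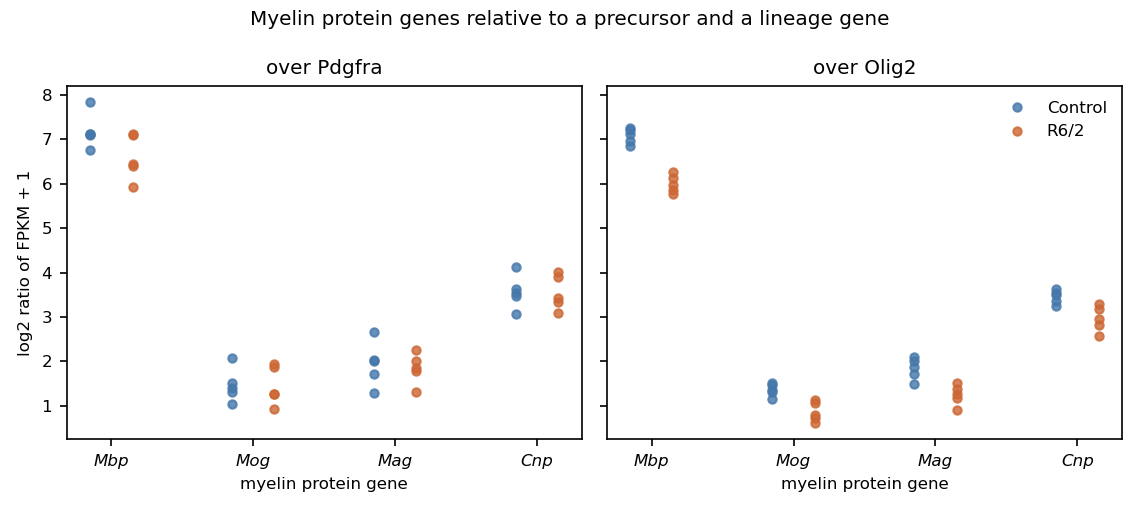
Log2 ratio of FPKM + 1 of 4 myelin protein genes to Pdgfra and to Olig2, 1 point per library, Control in blue and R6/2 in orange. Over Olig2 the Mbp and Mog points do not overlap between groups, and over Pdgfra the groups overlap for all 4 genes.

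Further genes of the lineage and of its partners were read in the same fit. Of 38 tested genes in a further list of oligodendrocyte genes, 9 were lower and 1, Pcdh15 (0.32), was higher (median -0.24). By the same rule 9.11% of all genes tested were lower and 5.00% higher. Cacng4, a channel subunit gene that precursors express and neurons also do, measured 21.4 ± 3.16 FPKM in Control and 5.32 ± 0.753 in R6/2 (SD, n = 5), a change of -1.82 (limma adjusted p = 1.83e-05). Il33 (-0.91), Car2 (-0.68) and Adamts4 (-0.61), all markers of mature oligodendrocytes, were lower with no overlap between groups.

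Cholesterol, which every myelin membrane needs in bulk, is made by enzymes of which 4 of 18 tested were lower and 0 higher (median -0.22). Among the lower genes were Msmo1 (-1.01) and Dhcr7 (-0.43), and neurons and astrocytes express these genes as well. Of 13 tested genes for axonal proteins at the sheath, the node or the axon's skeleton, 5 were lower and 0 higher (median -0.13), led by the paranodal Cntnap1 (-0.58), the neurofilament gene Nefm (-1.0) and Ank3, the scaffold of nodes and initial segments (-0.57). Both the cholesterol and the axonal counts stand beside 9.11% lower and 5.00% higher over all genes tested.

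The cortical signal (the mean of the tested cortical genes, as a log2 deviation) did not overlap between the groups. With it as a covariate, 5 of the 41 tested lineage genes were lower (Mobp, Ugt8a, Fa2h, Mal and Tspan2), against 2.84% of all genes tested. All 5 were among the 13 lower genes, and the other 8 of the 13 did not pass. Of those 8 the fitted change was lower than without the covariate for Cldn11 (-0.89), Aspa (-0.64), Ermn (-0.56) and Gjc3 (-0.75), and nearer 0 for Mbp (-0.78), Opalin (-0.69), Plekhb1 (-0.27) and Bcas1 (-0.23), with limma adjusted p from 0.0956 (Gjc3) to 0.502 (Bcas1). The median of the myelinating genes was -0.43 in place of -0.49. The nearest libraries of opposite groups were R6/2 4 (0.0105) and Control 4 (-0.0194) with Control 2 (-0.0293). Of the 41 tested lineage genes, R6/2 4 lay below both of these controls in 31, between them in 4 and above both in 6. The share of all genes tested below both was not counted, so the 31 has no background to be read against. All 13 genes that passed were among the 31, as their choice from the same libraries makes likely. Among the genes that did not pass, Cnp measured 53.2 FPKM in R6/2 4 against 55.8 and 65.6 in Control 4 and 2, and Hapln2 measured 4.78 against 2.14 and 3.75. This is 1 R6/2 library, and it carries no test. The part of the cortical signal in the other values was not tested.

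The use of strand in counting was, in the sources used here, not given. Of the 43 genes, 17 have exons that overlap another gene's, and reads of the overlap cannot be told apart. Among the 13 lower genes these were Bcas1, Ermn and Tspan2, with a gene on the other strand, and Mobp, with a gene model on the same strand. Ugt8a, Fa2h, Mal, Mbp, Opalin, Cldn11, Aspa, Plekhb1 and Gjc3 had no such overlap.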

How the data were processed

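RNA from mouse striatum was sequenced in 10 libraries (5 R6/2, 5 Control) and the authors deposited 1 table of FPKM values. Mouse build GRCm38, the aligner STAR 2.4.0, and Cufflinks with Cuffdiff are named, per the submitters' processing notes. The part each tool played, the gene annotation, the use of strand and whether libraries were scaled to each other were, in the sources used here, not given. Per the labels' protocols the RNA was amplified (NuGEN Ovation), which can change relative levels between genes. A workbook named in the labels was not analysed here.

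Symbols came from GENCODE (GRCm38) by stable Ensembl ID: 47220 of 47632 IDs had one, and 39102 also matched in version. Columns were matched to samples by the column names that the descriptions hold, with 0 left over. The fit was limma 3.58.1 in R 4.3.3 (empirical Bayes with a mean-variance trend) on log2(FPKM + 1), a scale that understates changes of low genes, over genes averaging 1 FPKM or more, two-sided, at a Benjamini-Hochberg adjusted p of 0.05 over all 15905 genes. It was tested on simulated data. The labels give no batch. As an exact 0 may be a failed estimate, such values are given as listed at 0.

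The genes, the lists and the further markers were chosen with earlier results of these data known. Values in every library are printed for genes that passed and for 12 lineage genes whatever their result, and the other genes by means or ranges. Outside the 43, genes with the smallest p are named, up to 5 of the further oligodendrocyte list and up to 3 each of the cholesterol and axonal lists. Some genes that meet this rule are not reported here, and Pcdh15 was named after its value was seen. Alternatives changed the pseudocount (0.1 and 5), the filter (none, and a mean of 5), the scaling, the replicate block, the cortical covariate and the libraries included.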

Additional observations from a re-analysis of the deposited data

Results flagged for a closer look

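In each group of 5 libraries, a value was singled out when the gap between the highest or lowest library and its neighbour took up most of the group's range (Dixon's test at the 95% level). Of 102 groups looked at, 8 values met this, and chance alone gives about 1 in 20. R6/2 5 held 4 of the 8: Olig2 at 9.76 FPKM (next highest 4.96), Sox10 at 27.1 (next 15.2), Nkx6-2 at 2.42 (next 1.30) and Tmem88b at 37.3 (next 28.8). In Control 5, Tnr stood at 49.2 FPKM (next 35.3) and Gpr37 at 9.50 (next 6.67). Gjb1 stood at 3.58 FPKM in Control 1 (next 2.13). Trf was low in R6/2 3, at 78.0 FPKM (next lowest 109).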

How the results depend on the processing

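All 13 genes that passed had changes below 0 in every alternative in which they were tested, and 5 of them (Mobp, Ugt8a, Fa2h, Mal and Tspan2) passed in all 18. Without each library in turn, 10 of the 13 always passed (not Bcas1, Cldn11 and Ermn), and the count of lineage genes lower ran from 10 to 19 and of those higher from 0 to 1. Over all genes tested, 7.23% (without Control 3) to 9.41% (without Control 5) were lower as libraries were left out. The count of lineage genes lower was 10 with no filter (4.61% of all genes tested were lower), quantile normalization (8.03%), protein-coding rescaling (7.12%) or the replicate block (6.13%). It was 5 with the cortical covariate, which left 452 lower and 93 higher over all genes. The cause was not tested. The precursor median was -0.48 and -0.12 with pseudocounts of 0.1 and 5, -0.07 with a minimum mean of 5 FPKM and -0.55 with the covariate. The myelinating median was -0.38 after rescaling, which moved the median of all genes to 0.094. The lineage factor median ran from -0.26 (without R6/2 5) to -0.08 as libraries were left out. Mbp over Pdgfra was -0.75 and passed with a pseudocount of 5 (adjusted exact permutation p = 0.0254). As libraries were left out, the differences over Olig2 ran from -1.15 to -1.02 (Mbp), -0.56 to -0.43 (Mog), -0.67 to -0.50 (Mag) and -0.58 to -0.40 (Cnp). They lost the threshold without Control 2, 3 or 5 (adjusted exact permutation p up to 0.0794), and Cnp also without Control 4.

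Replicate numbers are shared between the groups, and the labels do not say that they pair the samples. The deviations of same-numbered libraries correlated at -0.021, -0.015, -0.053, -0.02 and 0.049, and 1 of 5 (number 5) correlated best with its own number. These correlations cannot settle whether the samples share a litter, day or batch. With the replicate block 10 lineage genes were lower (975 lower and 370 higher over all genes), and sign flips of the paired differences over Olig2 (-1.08, -0.50, -0.59 and -0.50) gave an adjusted exact p of 0.125, which 32 flips cannot take under the threshold. Depth could be read only relative to Control 1, and only if each library was divided by its own total. No counting error can therefore be given for genes near 1 FPKM.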
